A study of Mus musculus with 8 samples.

Results

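The nuclear-encoded subunits of the mitochondrial respiratory chain were followed in pancreas during acute pancreatitis, in mice with and without Anxa1 in their myeloid cells. The set comprised every gene of the deposited table whose symbol begins with Ndufa, Ndufb, Ndufc, Ndufs or Ndufv and a number (complex I), is Sdha, Sdhb, Sdhc or Sdhd (complex II), begins with Uqcr or is Cyc1 (complex III), begins with Cox4 to Cox8 (complex IV), or begins with Atp5 (complex V, the ATP synthase). This gave 88 of 16888 genes, namely 41 of complex I, 4 of complex II, 9 of complex III, 17 of complex IV and 17 of complex V. Ndufa4 was kept with complex I because of its symbol, although its protein is a subunit of complex IV. All 8 libraries came from whole pancreas after repeated injection of cerulein, a peptide that overstimulates the acinar cells and brings on pancreatitis. In 4 libraries (CKO1 to CKO4) the genotype was myeloid-specific Anxa1-knockout, and in 4 (WT1 to WT4) it was Anxa1 flox/flox, so the control mice carried the floxed allele and no deletion is labelled for them. The labels name neither the Cre driver nor the strain, age or sex, and do not say whether each library was a separate animal, so p-values measure the spread between these libraries. There was no group without cerulein, so the values describe a difference between genotypes within pancreatitis.

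The respiratory chain passes electrons from NADH (complex I) and succinate (complex II) through complex III to oxygen at complex IV, and the proton gradient built on the way drives the ATP synthase. Some core subunits of complexes I, III, IV and V are encoded by the mitochondrial genome, and the many small nuclear-encoded subunits around the core serve assembly, stability and regulation. Acinar cells of the pancreas make and secrete large amounts of digestive enzymes and depend on mitochondrial ATP, and loss of mitochondrial function is a known feature of pancreatitis. Only transcripts were measured here, by RNA sequencing. Subunits encoded by the mitochondrial genome were not analysed here.

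The libraries held 30469002 to 34359802 reads, as worked out from the steps between the RPKM values. Between 47.8% and 55.6% of the reads in the CKO libraries and between 48.8% and 52.1% in the WT libraries came from 23 acinar marker genes, so the label pancreas held. Anxa1, which encodes annexin A1, a calcium-dependent phospholipid-binding protein with anti-inflammatory activity, stood at 4.84, 4.76, 5.21 and 7.13 RPKM (reads scaled to gene length and to the total of the library) across CKO1 to CKO4 and at 8.44, 14.7, 7.05 and 9.74 RPKM across WT1 to WT4. CKO4 lay above WT3, so the groups overlapped. The log2 change was -0.73 ± 0.19 (SE, adjusted p = 0.0417 by limma, n = 4 and 4), and the call was lost when any 1 of CKO1, CKO2, CKO3, WT1, WT2 or WT4 was left out (adjusted p up to 0.108). Whole pancreas holds Anxa1 transcripts of other cells too, so the level does not measure the deletion in myeloid cells. Summed RPKM of 12 macrophage markers was 189 to 383 in the CKO libraries and 345 to 671 in the WT libraries, 2 of the 12 (16.7%) passed the test as lower, and none was higher, beside 5.74% lower and 1.42% higher of all 8513 tested genes. For 9 adipocyte markers the sums were 31.9 to 45.4 and 36 to 155, with 1 of 4 tested markers lower. WT2 stood apart in both lists, at 671 and 155 RPKM; the other WT libraries lay at 345, 383 and 486 RPKM for macrophage markers and at 48.3, 45.3 and 36 RPKM for adipocyte markers. Brown adipocyte markers summed to 1.51 to 2.84 RPKM in the CKO and 2.10 to 2.54 in the WT libraries, muscle markers to 3.37 to 4.24 and 2.63 to 7.47, and the testis marker in the table was at 0 to 0.0216 RPKM. In a bulk tissue, fewer cells of a type and less RNA per cell cannot be told apart, and the part of macrophages and adipocytes in the differences below was not tested.

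In the values as deposited, transcripts of 10 of 78 tested respiratory chain subunits (12.8%) were lower in the CKO pancreas and none was higher. Of all tested genes 5.74% were lower and 1.42% higher. Across the table the median change of short genes lay below that of long genes. When this trend on gene length was removed from every library, 1 subunit was lower and 3 were higher. The shares of all tested genes were then 2.83% lower and 4.11% higher. With the libraries centred on their medians 3 subunits were lower and none higher, beside 3.14% lower and 3.58% higher of all tested genes. The 10 were Ndufb2, Ndufb1, Ndufb6, Ndufb8 and Ndufs4 of complex I, Cox7a2 and Cox6c of complex IV, and Atp5g3, Atp5e and Atp5k of the ATP synthase. The ratio of mean RPKM, CKO over WT, ran from 0.562 for Ndufb2 to 0.776 for Cox6c. Atp5b and Atp5a1, the beta and alpha subunits of the ATP synthase, and Sdha, the flavoprotein of complex II, had log2 changes of -0.01, -0.07 and -0.11 and did not pass the test.

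Of the 88 genes, 78 had at least 1 RPKM in at least 4 libraries and were tested, and all 78 were above that level in all 8 libraries, with a lowest value of 3.37 RPKM. The test was limma on log2(RPKM + 1) with p-values adjusted over the 8513 tested genes of the table. The 10 lower subunits made up 12.8% of those tested, against 5.74% of all tested genes that were lower, 1.42% that were higher and 7.17% in either direction. Among the 78, 70 had a log2 change below 0 (89.7%), against 70.4% of all tested genes. All 4 CKO libraries lay below all 4 WT libraries for 27 of the 78 subunits (34.6%), against 16.2% of all tested genes, and the reverse held for 0 subunits and 2.46% of all tested genes. The median log2 change was -0.18 over the subunits and -0.12 over all tested genes, a gap that ranged from -0.11 to 0.01 when 1 library was left out. The number of lower subunits fell to 2 without CKO2, 2 without WT1, 3 without WT4 and 5 without WT2. Over all tested genes the number of lower calls fell from 489 to 181, 130, 195 and 177 in the same fits.

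**Figure D1:**
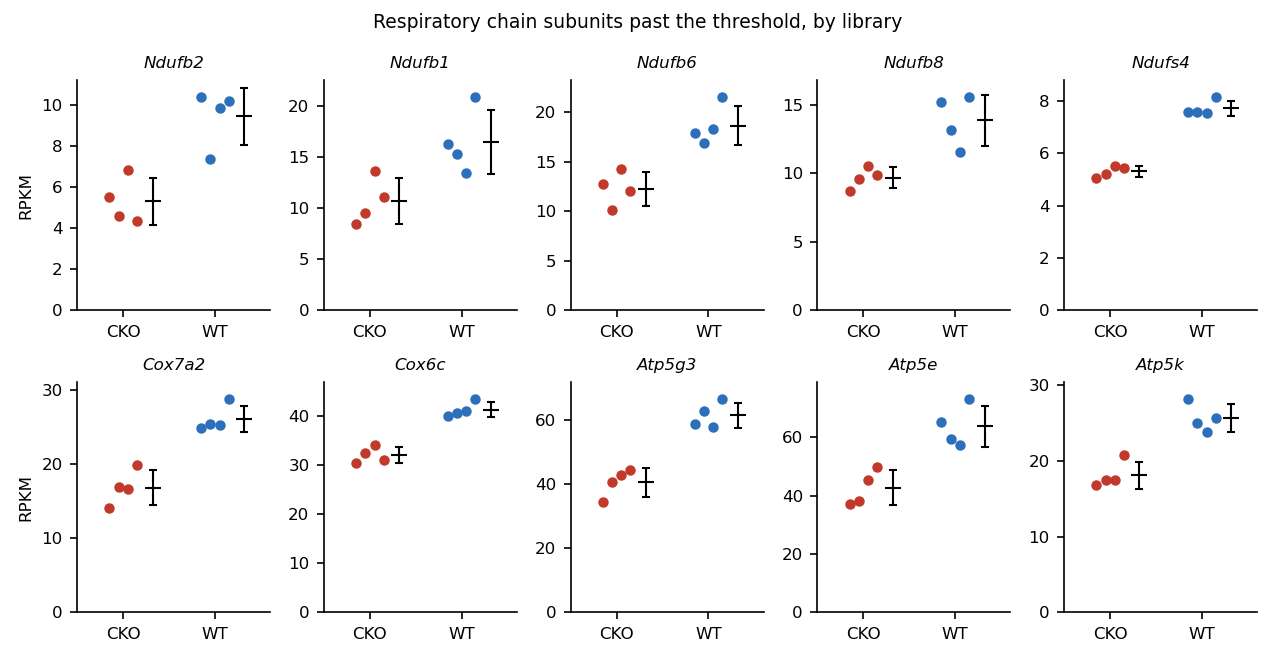
RPKM of the 10 subunit genes lower in CKO, 1 panel per gene with its own axis from 0; each point is a library (red CKO1 to CKO4, blue WT1 to WT4), and the bar beside each group is the mean ± SD (n = 4). The groups do not overlap in 9 of the 10 panels; in Ndufb1, CKO3 at 13.7 RPKM lies above WT3 at 13.4 RPKM.

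Summed over the 78 tested genes, subunit transcripts reached 2320, 2510, 2614 and 2558 RPKM across CKO1 to CKO4 and 2828, 2840, 2630 and 3047 RPKM across WT1 to WT4. The groups did not overlap, though CKO3 and WT3 lay next to each other. The CKO mean was 2501 ± 128 and the WT mean 2836 ± 170 (SD, n = 4), a ratio of 0.882. The median log2 change was -0.18 over the subunits and also over the 4226 tested genes in their range of length. With the length trend removed the median of the subunits was 0.04, and the median of every complex was positive. By complex, the ratio of summed RPKM was 0.850 for complex I, 0.888 for complex II, 0.881 for complex III, 0.906 for complex IV and 0.889 for complex V. Median log2 changes over the tested genes were -0.22 for complex I (37 genes), -0.14 for complex II (4 genes), -0.16 for complex III (9 genes), -0.16 for complex IV (11 genes) and -0.15 for complex V (17 genes), without a test of the differences between complexes.

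**Figure D2:**
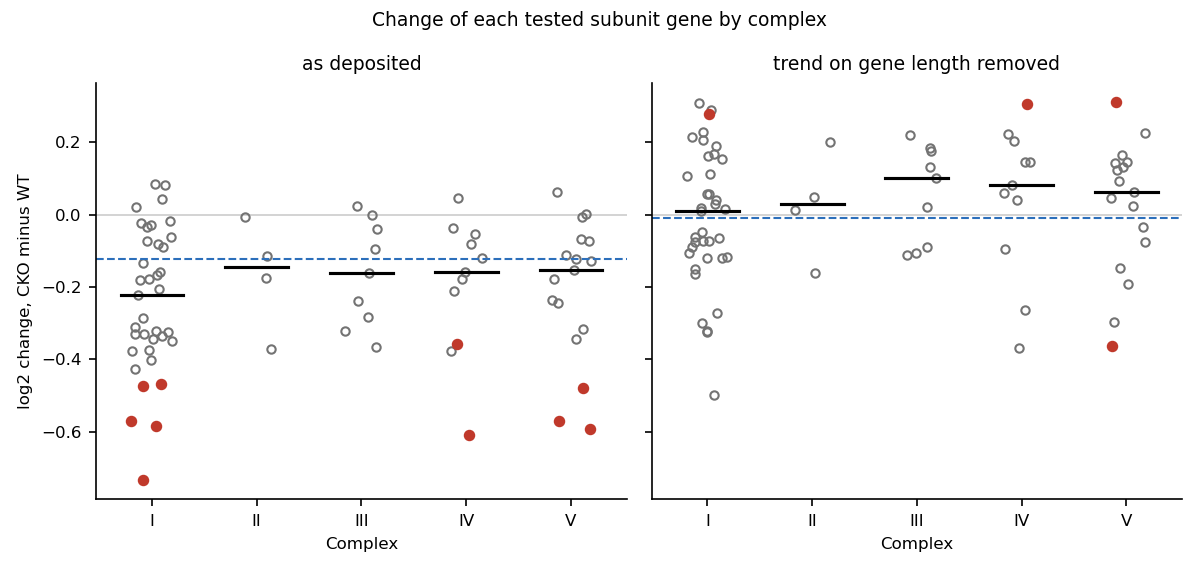
Log2 change (CKO minus WT) of each tested subunit gene by complex, from the values as deposited (left) and after a trend on gene length was removed from every library (right). Open points did not pass the test, red points did, black bars are medians and the dashed line is the median of all tested genes; on the left all 5 medians lie below the dashed line, and on the right all 5 lie above it.

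In complex I the 5 lower transcripts were all accessory subunits. None of the 7 tested core subunits, which hold the flavin and the iron-sulfur clusters, passed the test, while 5 of 29 accessory subunits did (17.2%). Among all tested genes under 700 bases, 15.8% were lower, and with the length trend removed 0 of the 29 accessory subunits were lower and 1 was higher. The median log2 change was -0.17 over the core subunits, with a median gene length of 1608 bases, and -0.32 over the accessory subunits, with a median of 677 bases. Core and accessory subunits were not tested against each other.

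Ndufb2, an accessory subunit of the membrane arm, had the lowest ratio of the 78 tested genes. It measured 5.49, 4.57, 6.83 and 4.33 RPKM across CKO1 to CKO4 and 10.4, 7.37, 9.83 and 10.2 RPKM across WT1 to WT4. All CKO libraries lay below all WT libraries, with CKO3 and WT2 closest. The log2 change was -0.73 ± 0.15 (SE, limma adjusted p = 0.0166), and the call was lost without CKO2 or without WT1 (adjusted p up to 0.0597) and after removal of the length trend (log2 change -0.50, adjusted p = 0.0508). Ndufb2 (mm10 chr6:39592574-39603382, plus strand) shares exon bases with Gm42420 on its own strand and with Braf and Gm16272 on the other, and the sources used here do not give the strand setting of the count, so reads in those bases cannot be told apart.

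Ndufb6, also of the membrane arm, was at 12.7, 10.1, 14.3 and 12.1 RPKM in the CKO libraries and at 17.9, 17.0, 18.3 and 21.6 RPKM in the WT libraries. The groups did not overlap. Its log2 change of -0.57 ± 0.13 (adjusted p = 0.0226) no longer passed without CKO2, CKO4, WT1 or WT4 (adjusted p up to 0.0676), with median centring (adjusted p = 0.0629) or with the length trend removed (-0.32, adjusted p = 0.0870). Ndufb8, another membrane arm subunit, stood at 8.71, 9.57, 10.6 and 9.90 RPKM against 15.2, 13.2, 11.6 and 15.6 RPKM. Here too every CKO library was below every WT library, and WT3 was the nearest to the CKO group. Its log2 change was -0.47 ± 0.12 (adjusted p = 0.0381), which was kept only with CKO3 or WT3 left out and otherwise lost (adjusted p up to 0.120). It was also lost with centring (adjusted p = 0.0958), with limma-voom on the recovered reads (adjusted p = 0.0520) and after removal of the length trend (-0.33, adjusted p = 0.102). Ndufb6 shares exon bases with Smim27 and Ndufb8 with Gm20538.

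For Ndufb1, a very small membrane arm subunit, the values were 8.45, 9.53, 13.7 and 11.1 RPKM across CKO1 to CKO4 and 16.3, 15.3, 13.4 and 20.9 RPKM across WT1 to WT4. It was the one called subunit whose groups overlapped, since CKO3 exceeded WT3. With that, the change was -0.58 ± 0.16 on the log2 scale (adjusted p = 0.0475), and the call stayed only when CKO3 was the library left out (adjusted p up to 0.118 otherwise). Centring, limma-voom, totals without acinar enzymes and removal of the length trend ended it too (adjusted p = 0.0959, 0.0874, 0.0565 and 0.124, the last with a log2 change of -0.30). GENCODE M21 carries this gene as Ndufb1-ps (chr12:101968090-101977068, minus strand), not as a protein-coding gene, and it shares exon bases with Cpsf2.

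Ndufs4, an accessory subunit near the NADH-oxidising tip whose loss in mice causes a fatal brain disease resembling Leigh syndrome, was also lower. It read 5.05, 5.20, 5.52 and 5.45 RPKM in the CKO libraries and 7.59, 7.57, 7.54 and 8.15 RPKM in the WT libraries. The gap between the groups was larger than the spread within either, with SDs of 0.218 and 0.292. On the log2 scale it fell by 0.47 ± 0.10 (adjusted p = 0.0225), and the call was lost without CKO2 or without any 1 of the WT libraries (adjusted p up to 0.0694), with centring (adjusted p = 0.0523) and after removal of the length trend (-0.27, adjusted p = 0.0685).

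The most abundant complex I transcripts behaved differently from each other. Ndufa6, at 75, 74.0, 76.9 and 77.7 RPKM across CKO1 to CKO4 and 70.5, 81.8, 65.6 and 82.5 RPKM across WT1 to WT4, overlapped fully (log2 change 0.02, 95% interval -0.21 to 0.25), and it was higher with the length trend removed (0.28, adjusted p = 0.0497). Ndufb9 was at 57.7, 62.1, 60.1 and 62.7 RPKM against 80.8, 72.2, 70.5 and 82.8 RPKM. Its groups did not overlap, yet the log2 change of -0.33 ± 0.10 had an adjusted p of 0.0644. The core subunit Ndufs3 (log2 change -0.38, adjusted p = 0.0598) and the accessory subunit Ndufa1 (-0.43, adjusted p = 0.0598), chosen after their values were seen, were closest to the threshold.

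Complexes II and III gave no calls. Succinate dehydrogenase is the one complex whose subunits are all nuclear, and its flavoprotein Sdha measured 14.6, 17.9, 17.7 and 16.7 RPKM in the CKO libraries and 17.9, 20.1, 18.3 and 16.3 RPKM in the WT libraries. These values overlapped (log2 change -0.11, 95% interval -0.35 to 0.13). The iron-sulfur subunit Sdhb was at 17.8, 20.8, 20.3 and 24.5 RPKM against 27.3, 21.3, 22.9 and 22.8 RPKM, overlapping through CKO4 (log2 change -0.17, 95% interval -0.44 to 0.09). Sdhd, a membrane anchor, had means of 12.1 ± 1.63 and 15.8 ± 0.528 RPKM (SD, n = 4) with no overlap and an adjusted p of 0.0700.

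In complex III, Uqcrh, the acidic hinge protein that helps cytochrome c dock, read 57.6, 62.4, 62.8 and 59.0 RPKM across CKO1 to CKO4 and 80.7, 71.5, 65.1 and 98.9 RPKM across WT1 to WT4. All CKO libraries lay below all WT libraries, but the WT libraries spread widely and the adjusted p was 0.0926 (log2 change -0.36 ± 0.13). The small subunit Uqcrq, at 40.6, 42.1, 46.0 and 46.0 RPKM against 45.6, 40.3, 41.7 and 44.0 RPKM, overlapped throughout (log2 change 0.02, 95% interval -0.19 to 0.24). Uqcrfs1, the Rieske iron-sulfur protein, averaged 21.4 ± 1.41 RPKM in the CKO and 27.1 ± 2.31 RPKM in the WT libraries without overlap (log2 change -0.32, adjusted p = 0.0799). Both electron-carrying subunits encoded in the nucleus, Uqcrfs1 and Cyc1, had groups that did not overlap, as did 16.2% of all tested genes with CKO below WT. Neither passed the test (limma adjusted p for Cyc1 0.134). With the length trend removed their log2 changes were -0.11 and -0.09 (adjusted p = 0.402 and 0.599). Both large core proteins, Uqcrc1 and Uqcrc2, overlapped, with log2 changes of 0.00 and -0.04. Cyc1, Uqcrc1 and Uqcrc2 were picked out after their values were seen.

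In complex IV, Cox7a2 and Cox6c were lower. Cox7a2, the widely expressed isoform of subunit 7a, measured 14.0, 16.8, 16.6 and 19.8 RPKM across CKO1 to CKO4 and 24.8, 25.3, 25.3 and 28.7 RPKM across WT1 to WT4. The groups did not overlap. Its log2 change was -0.61 ± 0.12 (adjusted p = 0.0136), and leaving out any 1 library kept the call (adjusted p 0.0106 to 0.0447), while removing the length trend ended it (-0.37, adjusted p = 0.0618). Cox6c, a small subunit of the enzyme, was at 30.3, 32.4, 34.1 and 31.1 RPKM against 40.02, 40.6, 41.0 and 43.3 RPKM. The groups stood clearly apart, with SDs of 1.66 and 1.45 RPKM, but the change was small (log2 change -0.36 ± 0.10, adjusted p = 0.0442) and passed only when no library or CKO3 was left out (adjusted p up to 0.110 otherwise). With the length trend removed it was -0.09 (adjusted p = 0.437), and centring and limma-voom ended the call as well (adjusted p = 0.109 and 0.0788). Cox6c shares exon bases with Vps13b on the other strand.

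The abundant members of complex IV overlapped. Cox4i1, the nuclear subunit incorporated early in assembly, was at 143, 149, 157 and 158 RPKM in the CKO and 186, 165, 144 and 186 RPKM in the WT libraries, with WT3 at the level of CKO1 (log2 change -0.16, 95% interval -0.39 to 0.08). Cox6a1 was at 89.2, 112, 104 and 99.6 RPKM against 96.7, 97.1, 92.8 and 104 RPKM (log2 change 0.05, 95% interval -0.18 to 0.27), and was higher with the length trend removed (0.31, adjusted p = 0.0385). The isoforms of other tissues were barely present. Cox6a2 and Cox7a1, the heart and muscle isoforms, reached at most 7 and 6 reads in a library, Cox4i2, the lung isoform, and Cox6b2, a testis isoform, at most 1 read each, and the testis isoforms Cox7b2 and Cox8c were above 0 in 1 library each. Ndufa4l2, a paralog of Ndufa4 known to be induced by hypoxia, was at 0.302 to 0.558 RPKM in the CKO and 0.300 to 0.513 RPKM in the WT libraries, 11 to 22 reads. These 7 genes and the complex I paralogs Ndufb4b, Ndufb4c and Ndufs6b made up the 10 genes that were not tested. Levels of up to 3 reads do not show whether a gene is expressed, and a floor of 3 reads covers counting error only.

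In the ATP synthase 3 of 17 tested genes were lower (17.6%), beside 5.74% of all tested genes. They were 1 gene each of the central stalk, the c ring and the membrane part. With the length trend removed 1 of the 17 was lower and 1 was higher. Atp5e encodes the epsilon subunit of the central stalk, and it was the only lower one of 5 tested subunits of the F1 head. It read 37.3, 38.1, 45.5 and 49.9 RPKM across CKO1 to CKO4 and 65.4, 59.4, 57.2 and 73.0 RPKM across WT1 to WT4. No CKO library reached the lowest WT library. Its log2 change was -0.57 ± 0.13 (adjusted p = 0.0226), a call that was lost without CKO2, WT1 or WT4 (adjusted p up to 0.0694), with centring (adjusted p = 0.0697) and after removal of the length trend (-0.30, adjusted p = 0.0974).

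Atp5b and Atp5a1, the beta and alpha subunits of the F1 head, were the most abundant transcripts of the complex. Atp5b was at 179, 201, 206 and 199 RPKM in the CKO libraries and 197, 203, 200 and 188 RPKM in the WT libraries. Atp5a1 was at 82.5, 98.0, 102 and 100.1 RPKM against 99.2, 105, 106 and 90.7 RPKM. Both overlapped, with log2 changes of -0.01 (95% interval -0.21 to 0.20) and -0.07 (95% interval -0.30 to 0.16); with the length trend removed they were 0.16 and 0.15 and passed no test. In the values as deposited, both intervals leave out the log2 change of Atp5e, -0.57, whose own 95% interval was -0.84 to -0.30. The genes were not tested against each other, and their lengths differ (414 bases for Atp5e, 1879 for Atp5b and 1216 for Atp5a1).

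Atp5k encodes subunit e of the membrane part, which takes part in pairing ATP synthases into dimers. It was at 16.8, 17.6, 17.5 and 20.8 RPKM in the CKO and 28.2, 25, 23.8 and 25.6 RPKM in the WT libraries. The groups did not overlap, with CKO4 and WT3 closest. This gave a log2 change of -0.48 ± 0.11 (adjusted p = 0.0251), a call that was lost without CKO2, WT1, WT2 or WT4 (adjusted p up to 0.0857). Centring and limma-voom also ended it (adjusted p = 0.0817 and 0.0606), and without the length trend the change was -0.19 (adjusted p = 0.268). At 320 bases Atp5k was the shortest gene of the set. The 4 tested genes of the peripheral stalk gave no call. The groups of 3 of them, Atp5j, Atp5pb and Atp5o, picked out after their values were seen, did not overlap. Every CKO library lay below every WT library for 16.2% of all tested genes as well. With the length trend removed the log2 changes of Atp5j, Atp5pb and Atp5o were -0.15, -0.04 and 0.06.

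The 3 genes of the c subunit separated. Atp5g1, Atp5g2 and Atp5g3 encode the same mature protein, the one that forms the rotating ring, behind different mitochondrial targeting peptides. Atp5g3 measured 34.4, 40.6, 42.7 and 44.5 RPKM across CKO1 to CKO4 and 58.7, 62.8, 57.9 and 66.5 RPKM across WT1 to WT4. All CKO libraries were well below all WT libraries. The log2 change was -0.59 ± 0.11 (95% interval -0.83 to -0.35, adjusted p = 0.0117), the smallest adjusted p of the set, and leaving out any 1 library kept the call (adjusted p 0.0156 to 0.0402). With the length trend removed it was still lower (-0.36, adjusted p = 0.0365). Atp5g2 was at 57.6, 61.1, 62.5 and 60.0 RPKM against 56.4, 59.0, 54.5 and 61.2 RPKM. Atp5g1 was at 26.4, 23.9, 27.5 and 30.1 RPKM against 26.3, 28.7, 26.2 and 26.4 RPKM. Both overlapped, with log2 changes of 0.06 (95% interval -0.14 to 0.27) and 0.00 (95% interval -0.23 to 0.23). With the length trend removed Atp5g2 was higher (0.31, adjusted p = 0.0224) and Atp5g1 was at 0.23 (adjusted p = 0.171). Atp5g1 and Atp5g2 were set beside Atp5g3 after its values were seen, and so were the ratios that follow.

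The ratio of Atp5g3 to the sum of Atp5g1 and Atp5g2 does not depend on the total of the library. It was 0.409, 0.478, 0.475 and 0.494 in CKO1 to CKO4 and 0.710, 0.717, 0.717 and 0.759 in WT1 to WT4. The groups did not overlap and differed by -0.65 on the log2 scale. No test is given, since the ratio was formed from genes whose values had been seen. The ratio of Atp5g1 to Atp5g2 ran from 0.391 to 0.503 in the CKO and from 0.431 to 0.487 in the WT libraries, which overlapped. Together the 3 genes summed to 128 ± 7.37 RPKM in the CKO and 146 ± 7.34 RPKM in the WT libraries (SD, n = 4). Reads from stretches that the 3 genes or their pseudogenes share may match more than 1 of them, and the sources used here do not say how such reads were counted.

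**Figure D3:**
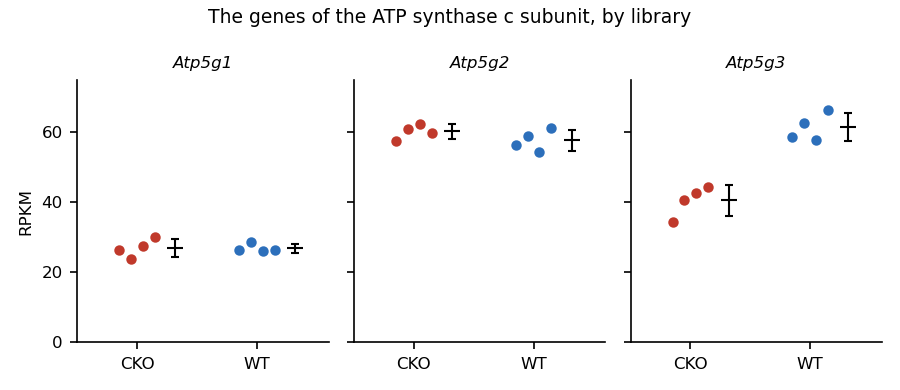
RPKM of the 3 genes that encode the ATP synthase c subunit, on 1 shared axis from 0; each point is a library (red CKO, blue WT) with the mean ± SD beside it (n = 4). Atp5g1 and Atp5g2 overlap between the groups, and Atp5g3 is at 34.4 to 44.5 RPKM in CKO and 57.9 to 66.5 RPKM in WT.

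Promoters of respiratory chain genes are known for sites of NRF1, of ETS factors such as GABP (NRF2) and of YY1. The starts of the 3 c subunit genes and of Atp5k are shown because these genes share a complex and differ in their values. The sequences are RefSeq's, build GRCm38.p6 (the assembly of mm10), all on the minus strand, from 150 bases before to 30 bases after the annotated start, with capitals marking a match to 1 of the motifs searched.
Atp5g3 chr2:73911297-73911476: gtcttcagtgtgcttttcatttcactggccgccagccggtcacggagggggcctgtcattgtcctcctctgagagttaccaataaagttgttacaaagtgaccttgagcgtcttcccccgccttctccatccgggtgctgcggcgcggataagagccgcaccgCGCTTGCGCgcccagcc
Atp5g2 chr15:102671018-102671197: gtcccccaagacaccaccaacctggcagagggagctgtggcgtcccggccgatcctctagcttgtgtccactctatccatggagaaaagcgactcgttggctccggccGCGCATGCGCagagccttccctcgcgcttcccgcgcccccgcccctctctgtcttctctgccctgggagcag
Atp5g1 chr11:96075602-96075781: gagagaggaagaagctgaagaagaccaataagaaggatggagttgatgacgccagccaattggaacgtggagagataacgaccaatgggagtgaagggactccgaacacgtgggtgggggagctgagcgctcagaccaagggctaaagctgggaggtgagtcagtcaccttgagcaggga
Atp5k chr5:108434370-108434549: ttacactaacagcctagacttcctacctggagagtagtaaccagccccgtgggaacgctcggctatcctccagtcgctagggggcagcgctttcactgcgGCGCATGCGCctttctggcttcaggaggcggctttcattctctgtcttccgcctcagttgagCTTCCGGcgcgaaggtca
The letters searched were GCGCANGCG for NRF1, CCGGAAG for ETS factors and AAGATGGCG for YY1, on both strands, from 250 bases before to 50 after each start. Atp5g3, which was lower, and Atp5g2, which was not, each held an NRF1 match, Atp5k held an NRF1 and an ETS match, and Atp5g1 held none of these letters in its window. RefSeq windows were found for 69 of the 88 genes, 65 of them tested. Among those 65, 20 held an NRF1 match (30.8%), against 16.7% of 6869 tested genes with a window and 7.03% of all 27025 genes with one. An ETS match was found in 26.2% of the tested subunits and 22.3% of the tested genes, and a YY1 match in 10.8% and 4.27%. Of the 9 lower subunits with a window, 5 held at least 1 of the motifs (55.6%), beside 55.4% of the tested subunits. A match is a description of letters and not a measured binding site.

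Gene length went along with the change across the whole table, and subunit genes are short. The length is the one behind each RPKM value, recovered from the table. In the shortest 10% of tested genes (206 to 1194 bases) the median log2 change was -0.25 and 13.4% were lower, while in the longest 10% (7472 to 45465 bases) the median was -0.02 and 1.29% were lower. Of the 78 tested subunits, 52 were in the shortest 10% and 15 in the next. Within the shortest 10%, 8 of the 52 subunits were lower (15.4%) and their median was -0.21. In the comparisons by length that follow, the tested genes include the subunits. Under 700 bases 15.2% of 33 subunits and 15.8% of 234 tested genes were lower, and from 700 to under 1500 bases 11.5% of 26 subunits and 13.1% of 1093 genes. At 1500 bases or more it was 10.5% of 19 subunits, which is Ndufs4 and Ndufb8, and 4.30% of 7179 genes. Across genes, which are not independent replicates and share the same 8 libraries, the Pearson correlation of change with log2 length was 0.24 over the 78 subunits and 0.26 over all tested genes with a length. Over the 4226 tested genes in the same range of length as the subunits (320 to 3153 bases), the median was -0.18 as over the subunits, and 8.71% were lower.

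**Figure D4:**
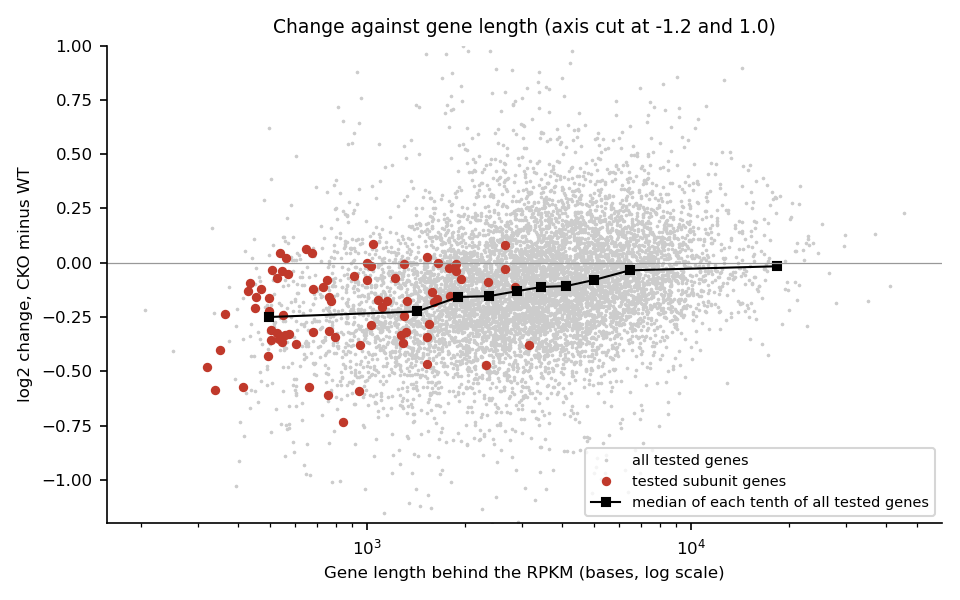
Log2 change (CKO minus WT) against the gene length behind the RPKM (bases, log axis) for all tested genes (grey) and the 78 tested subunit genes (red); genes beyond the limits of the vertical axis are not drawn. Black squares are medians of 10 equal groups of all tested genes by length; they go from -0.25 in the shortest group to -0.02 in the longest, and the subunits lie around the left end of that line.

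When the trend of each library on gene length was removed before the test, Atp5g3 was the one subunit still lower and Atp5g2, Cox6a1 and Ndufa6 were higher. The median log2 change of the subunits was then 0.04, with 31 below 0 and 47 above. In the same fit 2.83% of all tested genes were lower and 4.11% higher, so the split of calls over all genes turned from 489 lower and 121 higher to 241 and 350. Whether the trend on length comes from the libraries or from the tissue was not tested. Scaling mattered as well. Median centring of the libraries shifted the median change of all tested genes by 0.10 on the log2 scale, left Atp5g3, Cox7a2 and Ndufb2 lower, and gave 267 lower (3.14%) and 305 higher genes (3.58%) over the table. With limma-voom on the recovered reads 6 subunits were lower.

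Library by library, subunit genes moved with short genes. The shortest 10% of tested genes holds 52 of the 78 subunits, so part of this likeness is built in. The median deviation of the 78 subunits from each gene's mean over the libraries was -0.17, -0.10, -0.03 and -0.05 on the log2 scale in CKO1 to CKO4 and 0.10, 0.12, 0.00 and 0.20 in WT1 to WT4. In the shortest 10% of tested genes it was -0.17, -0.09, 0.00 and -0.19 and then 0.10, 0.15, 0.03 and 0.21. In the longest 10% it was -0.21, 0.07, 0.18 and -0.05 and then 0.01, 0.07, 0.16 and -0.23. CKO1 was low and WT4 high for subunits and short genes alike, and WT3 stood nearest to the CKO libraries. CKO4 parted from that order, with subunits at -0.05 and short genes at -0.19.

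**Figure D5:**
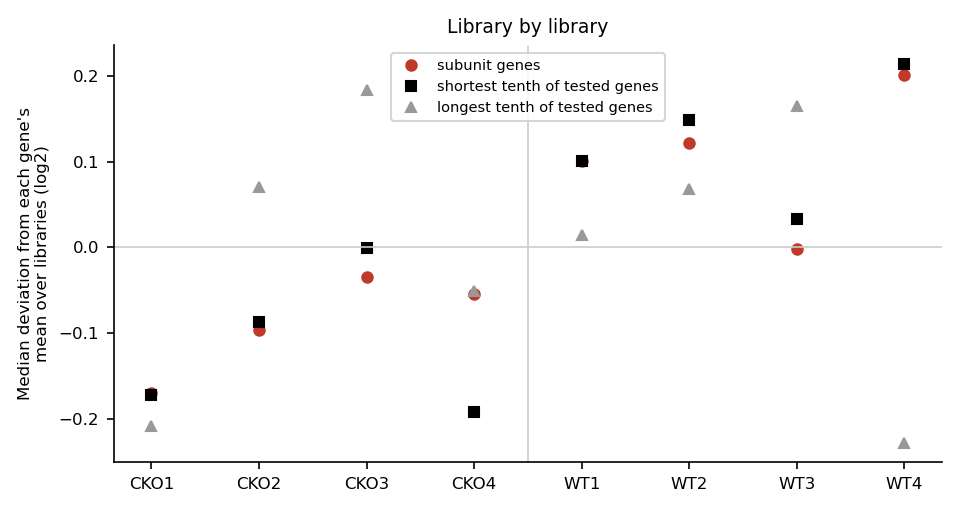
Median deviation from each gene's mean over the 8 libraries (log2) in every library, for the 78 subunit genes (red circles), the shortest 10% of tested genes (black squares) and the longest 10% (grey triangles). Circles and squares lie close together in every library but CKO4, where they are at -0.05 and -0.19, and WT4 is at 0.20 for subunits and at -0.23 for the longest genes. The shortest 10% holds 52 of the 78 subunits.

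Among the subunits the change also differed by level, without a test. Mean RPKM of the tested subunits ran from 3.88 to 197, a 50.7-fold range, and the 10 lower ones lay between 6.51 and 53.2 RPKM. None of the 10 most abundant subunits was lower, beside 5.74% of all tested genes, whose median log2 change was -0.12. Tested genes of like level were not counted, and level was not separated from gene length. Among the 39 more abundant subunits 3 were lower with a median log2 change of -0.13, and among the 39 less abundant ones 7 were lower with a median of -0.29.

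Other genes of the pathway, in lists chosen by function, gave 7 calls in the values as deposited, all lower. Over all these lists together the share that was lower was close to that of all tested genes. Of all tested genes 5.74% were lower and 1.42% higher. Of 12 tested assembly factors of complex I, 2 were lower (16.7%), Ndufaf2 (log2 change -0.55, adjusted p = 0.00891) and Ndufaf1 (-0.52, adjusted p = 0.0255), both needed to build the complex. Cox17, the copper chaperone for complex IV, was 1 of 18 tested assembly factors of that complex that was lower (5.56%; -0.63, adjusted p = 0.0221). None of 2, 4 and 3 tested assembly factors of complexes II, III and V passed. Among 12 carriers and porins, Slc25a4, the ADP/ATP translocase of heart and muscle, was the 1 lower gene (8.33%; -0.66, adjusted p = 0.0180). Of 25 import genes, Tomm5 and Tomm22 of the outer membrane translocase and Grpel1, a partner of mitochondrial Hsp70, were lower (12.0%; log2 changes -0.47, -0.52 and -0.39, adjusted p = 0.0302, 0.0329 and 0.0413). Slc25a4 was still lower once the length trend was removed (-0.45, adjusted p = 0.0419), while Ndufaf2, Ndufaf1, Cox17, Tomm5, Tomm22 and Grpel1 lost the call (adjusted p = 0.0589, 0.101, 0.0548, 0.168, 0.0858 and 0.102). Ndufaf2 kept its call whichever library was left out. It stood near the 1 RPKM filter, at 0.977 to 1.04 RPKM in the CKO libraries (29 to 32 reads). In the WT libraries it was at 1.71 to 2.11 RPKM (49 to 61 reads). Ndufaf2 shares exon bases with B230220B15Rik and Grpel1 with Tada2b, each on the other strand, and Cox17 with Gm21987 on its own strand. Ndufaf1 lost it without CKO4, WT1, WT3 or WT4 (adjusted p up to 0.0749), Cox17 without CKO2, CKO4, WT2 or WT4 (up to 0.0606), and Slc25a4 without CKO2 or WT2 (up to 0.0591). Tomm5 kept it only without CKO1 or CKO3, Tomm22 only without CKO3 or WT3, and Grpel1 only without CKO3 (adjusted p up to 0.0844, 0.0855 and 0.118 otherwise). None of 19 genes of the tricarboxylic acid cycle, 14 of electron carriers and coenzyme Q synthesis, or 11 regulators of mitochondrial biogenesis passed in either direction; with the length trend removed 1 gene of the tricarboxylic acid cycle and 1 of the electron carrier list were higher. Their median log2 changes were -0.05, -0.14 and -0.10, beside the -0.12 of all tested genes.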

How the data were processed

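RNA of 8 mouse pancreas samples, 4 per genotype as given in the titles, was sequenced on an Illumina instrument, per the labels. The deposited table holds RPKM values per gene symbol. The unit was read from the numbers, since no header gives it: for 16056 of 16068 genes above 0 in at least 2 libraries (99.93%), whole reads were recovered in every library (within 0.05 reads, or 1e-05 of the reads where smaller), which also gave gene lengths and library totals. The build was mm10, per the submitters' processing notes; the sources used here name no aligner, counter or annotation. The table has 1 more value column, with 8 values, that no label names, and it was not used.

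Genes reaching 1 RPKM in at least 4 libraries entered a test with limma 3.58.1 in R 4.3.3 on log2(RPKM + 1), with group as the only term, a variance trend on the mean, robust moderation and Benjamini-Hochberg adjustment over all tested genes (threshold 0.05). Fold changes on this scale understate those of low genes. The fits and the recovery of reads were tested on simulated data. Alternatives were a pseudocount of 0.1, no filter, median centring, library totals without acinar enzymes, removal of a loess trend (span 0.4) on log2 gene length, no variance trend, a block for the replicate number, limma-voom on recovered reads, and each library left out. Positions and overlaps are from GENCODE M21 and promoters from RefSeq.

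Named are all subunits past the threshold, the pair with the smallest p and the pair with the highest mean RPKM in each complex, isoforms of other tissues, Anxa1, and up to 4 genes past the threshold in each pathway list. The members, lists and tests were chosen with earlier results of these data known. Exact matching of paralogs and pseudogenes was not checked. Other steps used Matplotlib 3.10.9, SciPy 1.17.1, pandas 2.3.3, NumPy 2.4.6 and Python 3.11.15.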

Additional observations from a re-analysis of the deposited data

Results flagged for a closer look

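In 46 groups of 4 libraries looked at among the named subunits, a library stood far from the other 3 in 2 groups by Dixon's criterion, a number that chance gives in about 1 of 20 groups. Ndufs4 in WT4 was at 8.15 RPKM while the other WT libraries lay between 7.54 and 7.60 RPKM. Cox7a2 in WT4 was at 28.7 RPKM while the others lay between 24.8 and 25.3 RPKM. Without WT4 the call of Cox7a2 was kept and that of Ndufs4 was lost. The log2 change of Ndufs4 was between -0.48 and -0.44 over the 8 fits with 1 library left out.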

How the results depend on the processing

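Of the 10 lower subunits, Atp5g3 was called in all 16 alternatives (adjusted p 0.0126 to 0.0402), Cox7a2 in 15, Ndufb2 in 13, Atp5e in 11, Ndufb6 in 10, Ndufs4 and Atp5k in 9, Ndufb8 and Cox6c in 5 and Ndufb1 in 2. Lower subunits numbered 9 with a pseudocount of 0.1, 8 without the filter, 9 with totals without acinar enzymes, 10 without the variance trend, 6 with limma-voom, 3 with median centring and 1 with the length trend removed, where 3 were higher and 4 called in all. With libraries left out the number ran from 2 to 11. Over all tested genes, calls were 610, of which 489 lower; lower calls were 323 with limma-voom, 267 with centring and 241 with the length trend removed, and leaving out libraries gave 185 to 686 calls and 130 to 600 lower ones. Removing the length trend turned the sign of the medians, to 0.0414 over all subunits, 0.0501 relative to all tested genes and 0.0095, 0.0306, 0.102, 0.0818 and 0.0623 in complexes I to V; with centring they were -0.0737 over all and -0.119, -0.0399, -0.0584, -0.0551 and -0.0488. Without the filter the median relative to all tested genes was -0.13. With libraries left out the median of complex III ran from -0.235 to -0.0897. The call of Anxa1 was lost without the filter (log2 change -0.73), with centring (-0.63), with totals without acinar enzymes (-0.68), with the length trend removed (-0.53) and with limma-voom (-0.83), and with libraries left out its change ran from -0.86 to -0.54. The causes were not tested. The replicate numbers in the titles are shared between the groups, but same-numbered libraries did not deviate together (correlations -0.12, -0.32, 0.14 and 0.03), so they were not taken as pairs; with the replicate number as a block 7 subunits and 548 genes were called. Depth limits the isoforms at a few reads per library, for which no difference could be detected.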

Other observations

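Of the genes outside the symbol pattern given here beside those of the pathway lists, Cycs, Ndufab1, Atpif1, Slc25a5, Nrf1 and Tfam were not called. Cycs, which encodes the cytochrome c of body cells, was at 10.7 ± 1.43 RPKM in the CKO and 11.9 ± 0.977 RPKM in the WT libraries (SD, n = 4; log2 change -0.14, limma adjusted p = 0.476). Ndufab1, the acyl carrier protein of complex I, was at 4.42 ± 0.351 and 4.74 ± 0.357 RPKM (log2 change -0.08, adjusted p = 0.662). Atpif1, the inhibitor of ATP synthase hydrolysis, was at 8.01 ± 0.860 and 8.85 ± 0.907 RPKM (log2 change -0.13, adjusted p = 0.503). Slc25a5, the ADP/ATP translocase of most tissues, was at 89.4 ± 14.2 and 104 ± 5.33 RPKM, overlapping between the groups (log2 change -0.23, adjusted p = 0.245), beside the lower Slc25a4 at 8.84 ± 1.52 and 14.5 ± 1.89 RPKM. Nrf1 and Tfam, regulators of mitochondrial gene expression, had log2 changes of -0.10 (adjusted p = 0.646) and -0.19 (adjusted p = 0.306).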
